A study of Mus musculus with 14 samples.

Results

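Transcripts of 36 genes that are typical of macrophages and monocytes were followed through RNA-seq libraries of T cells sorted from mouse tumours. The genes were listed by name as myeloid genes, and all 36 were present among the 25124 genes of the count table. The mice were C57BL/6 females of 8 to 12 weeks with the labelled genotype GATIR Foxp3Cre-rfp Gata3Cre-yfp, so every group carried the same alleles. Each mouse bore a subcutaneous AE17-OVA tumour, a transplanted mesothelioma line that expresses ovalbumin. They were given 200 µg of antibody into the peritoneal cavity on day 10, either anti-PD-L1 (clone MIH5), which blocks PD-L1, a ligand of the checkpoint receptor PD-1, or an isotype control (clone 2A3), and were killed on day 13 (one protocol counts this day from treatment, the other gives it without a start). PD-1+ regulatory T cells (Tregs; 3 anti-PD-L1 and 2 isotype libraries), PD-1- Tregs (2 and 2) and CD4 T cells of the helper gate (3 and 2) were sorted from the tumours by flow cytometry on CD4, CD25, the red reporter under Foxp3 and PD-1. The RNA was amplified with Smart-seq2, a full-length method for small inputs that adds no molecular identifiers. The series calls its replicates biological, but no source used here gives the animals or pools behind each library. The p-values below therefore cover only the variation seen among these libraries, which may be technical.

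Macrophages and their precursors, blood monocytes, are phagocytes: they take up particles through scavenger and Fc receptors, digest them in lysosomes, and in tumours secrete complement C1q, chemokines and apolipoprotein E. Their identity rests on the transcription factor PU.1, encoded by Spi1, and on signals through the receptor encoded by Csf1r. Most of these genes are little used by T cells, although some products, such as the lysosomal proteases cathepsin B and cathepsin S, are shared by many haematopoietic cells.

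The 14 libraries held 10638848 to 15030804 counts. PD-1+ Tregs had 9662 to 11312 genes with at least 1 count, PD-1- Tregs 8027 to 8801 and CD4 T cells 12119 to 14535, so the number of genes detected differed between populations without overlap. The sorted identity was checked with T cell genes: the signalling chain Cd3g averaged 1387 CPM (counts per 1e+06, after scaling for composition) in PD-1+ Tregs, 1224 CPM in PD-1- Tregs and 1514 CPM in CD4 T cells. The 12 genes of this check summed to a mean of 7032 CPM in PD-1+ Tregs, the lowest, 8071 CPM in PD-1- Tregs and 8198 CPM in CD4 T cells. The ranges of this sum overlapped (6433 to 8055, 7141 to 8741 and 7458 to 8972 CPM in turn). Pdcd1, which encodes PD-1, averaged 159.6 CPM in PD-1+ and 38.4 CPM in PD-1- Tregs (adjusted p = 0.0124 in edgeR's quasi-likelihood test). Foxp3, the Treg factor behind the reporter, ranged over 15.9 to 156 CPM in PD-1+ Tregs, 114 to 198 CPM in PD-1- Tregs and 16.3 to 55.0 CPM in CD4 T cells, so the range of PD-1+ Tregs overlapped with both others. In 3 libraries the Y-linked genes Ddx3y, Eif2s3y, Kdm5d and Uty summed to 285 CPM (PD-1+ Tregs, anti-PD-L1 replicate 3), 249 CPM (PD-1- Tregs, anti-PD-L1 replicate 2) and 207 CPM (CD4 T cells, anti-PD-L1 replicate 3), against at most 0.0849 CPM in the other 11. This goes against the label of female mice for those 3 libraries, which bear the same sample number within the treatment in their titles, so main results are also given without them.

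Markers of other cell types were summed in the same way. Dendritic cell and MHC class II genes (20 genes, led by the invariant chain Cd74, H2-Ab1 and H2-Aa) reached 20433 to 51182 CPM in PD-1+ Tregs, 9139 to 15828 CPM in PD-1- Tregs and 15483 to 29828 CPM in CD4 T cells. Their population means ranked in the same order as those of the macrophage genes, but the ranges of PD-1- Tregs and CD4 T cells overlapped. Whether both sums followed each other from library to library was not tested. Of the 20 genes, Xcr1, Zbtb46 and Batf3 had 0 counts in all 4 PD-1- Treg libraries. B cell markers summed to 65.5 to 620 CPM in PD-1+ Tregs, 42.0 to 534 CPM in PD-1- Tregs and 80.0 to 307 CPM in CD4 T cells. Neutrophil and mast cell markers stayed at or below 56.8 CPM in every library. Of these 16 genes, 13 were at 0 in all PD-1- Tregs, 9 in all PD-1+ Tregs and 5 in all CD4 T cells. CD8 T and NK cell markers stayed at or below 78.4 CPM. Stromal and mesothelial markers, led by the collagen Col1a1, ranged over 394 to 1432 CPM in PD-1+ Tregs, 506 to 1890 CPM in PD-1- Tregs and 318 to 1694 CPM in CD4 T cells. The part of any of these cells in the results on the macrophage genes was not tested. In bulk libraries fewer cells of a type and less RNA per cell cannot be told apart.

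Summed over the 36 genes, the level was 9004, 9797 and 12036 CPM in anti-PD-L1 and 10213 and 14972 CPM in isotype PD-1+ Tregs. It was 2334 and 2373 CPM in anti-PD-L1 and 2664 and 2247 CPM in isotype PD-1- Tregs. CD4 T cells had 7879, 6162 and 14239 CPM with anti-PD-L1 and 7671 and 8864 CPM with isotype. Every PD-1- Treg library thus lay below every other library, whereas the ranges of PD-1+ Tregs and CD4 T cells overlapped, and so did both treatments within PD-1+ Tregs, PD-1- Tregs and CD4 T cells. The population means were 11204 ± 2382 CPM in PD-1+ Tregs (SD, n = 5), 2404 ± 181 CPM in PD-1- Tregs (SD, n = 4) and 8963 ± 3104 CPM in CD4 T cells (SD, n = 5). The ratio of means was 4.66 for PD-1+ over PD-1- Tregs, 0.268 for PD-1- Tregs over CD4 T cells and 1.25 for PD-1+ Tregs over CD4 T cells, and without the 3 libraries with Y-linked reads it was 4.55, 0.316 and 1.44. As a share of raw counts the 36 genes took from 0.863% (95% Wilson interval 0.858 to 0.868%) to 1.55% (1.54 to 1.55%) in PD-1+ Tregs, 0.213% (0.211 to 0.216%) to 0.269% (0.266 to 0.272%) in PD-1- Tregs and 0.598% (0.594 to 0.602%) to 1.40% (1.39 to 1.41%) in CD4 T cells. The intervals describe counting error alone, because copies made by PCR are counted like separate molecules.

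**Figure D1:**
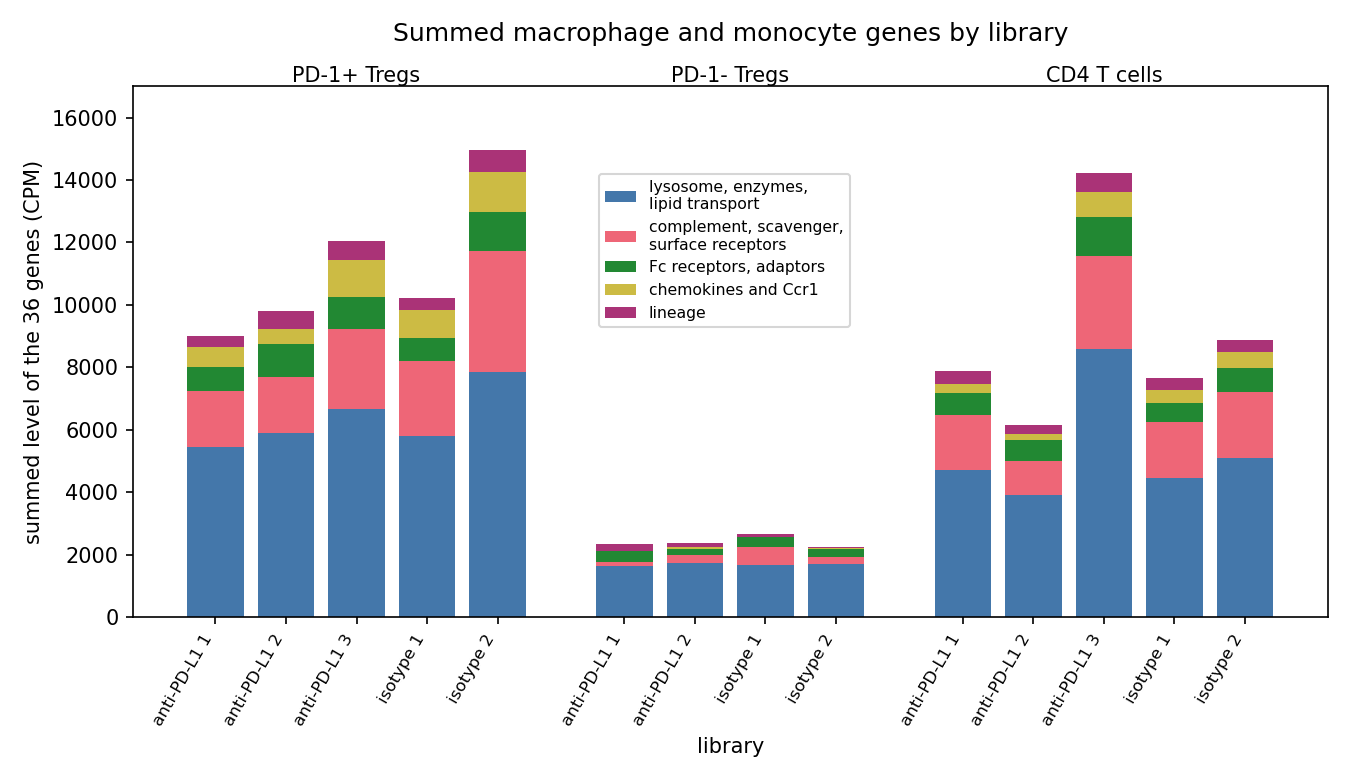
Summed level of the 36 macrophage and monocyte genes (CPM, linear axis) in each of the 14 libraries, stacked by role. The 4 PD-1- Treg libraries stood at 2247 to 2664 CPM, below the 9004 to 14972 CPM of PD-1+ Tregs and the 6162 to 14239 CPM of CD4 T cells.

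The make-up of the sum differed as well. Ctsb and Ctss, which encode cathepsins B and S, together held 21.8 to 30.6% of it in PD-1+ Tregs, 47.2 to 64.3% in PD-1- Tregs and 25.4 to 33.1% in CD4 T cells. Leaving out both cathepsins gave ratios of means of 7.81 for PD-1+ over PD-1- Tregs, 0.167 for PD-1- Tregs over CD4 T cells and 1.30 for PD-1+ Tregs over CD4 T cells. Of the 36 genes, 1 to 2 had 0 counts in each PD-1+ Treg library, 16 to 19 in each PD-1- Treg library and 0 to 3 in each CD4 T cell library. A count of 0 allows up to 0.222 to 0.279 CPM in the PD-1- Treg libraries, taking 3 counts as the limit. This limit, the fold bounds that use it and the counting interval of Arg1 below cover counting error alone. Replicate libraries differed beyond sampling noise, so a level above the limit is not excluded where the count was 0.

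**Figure D2:**
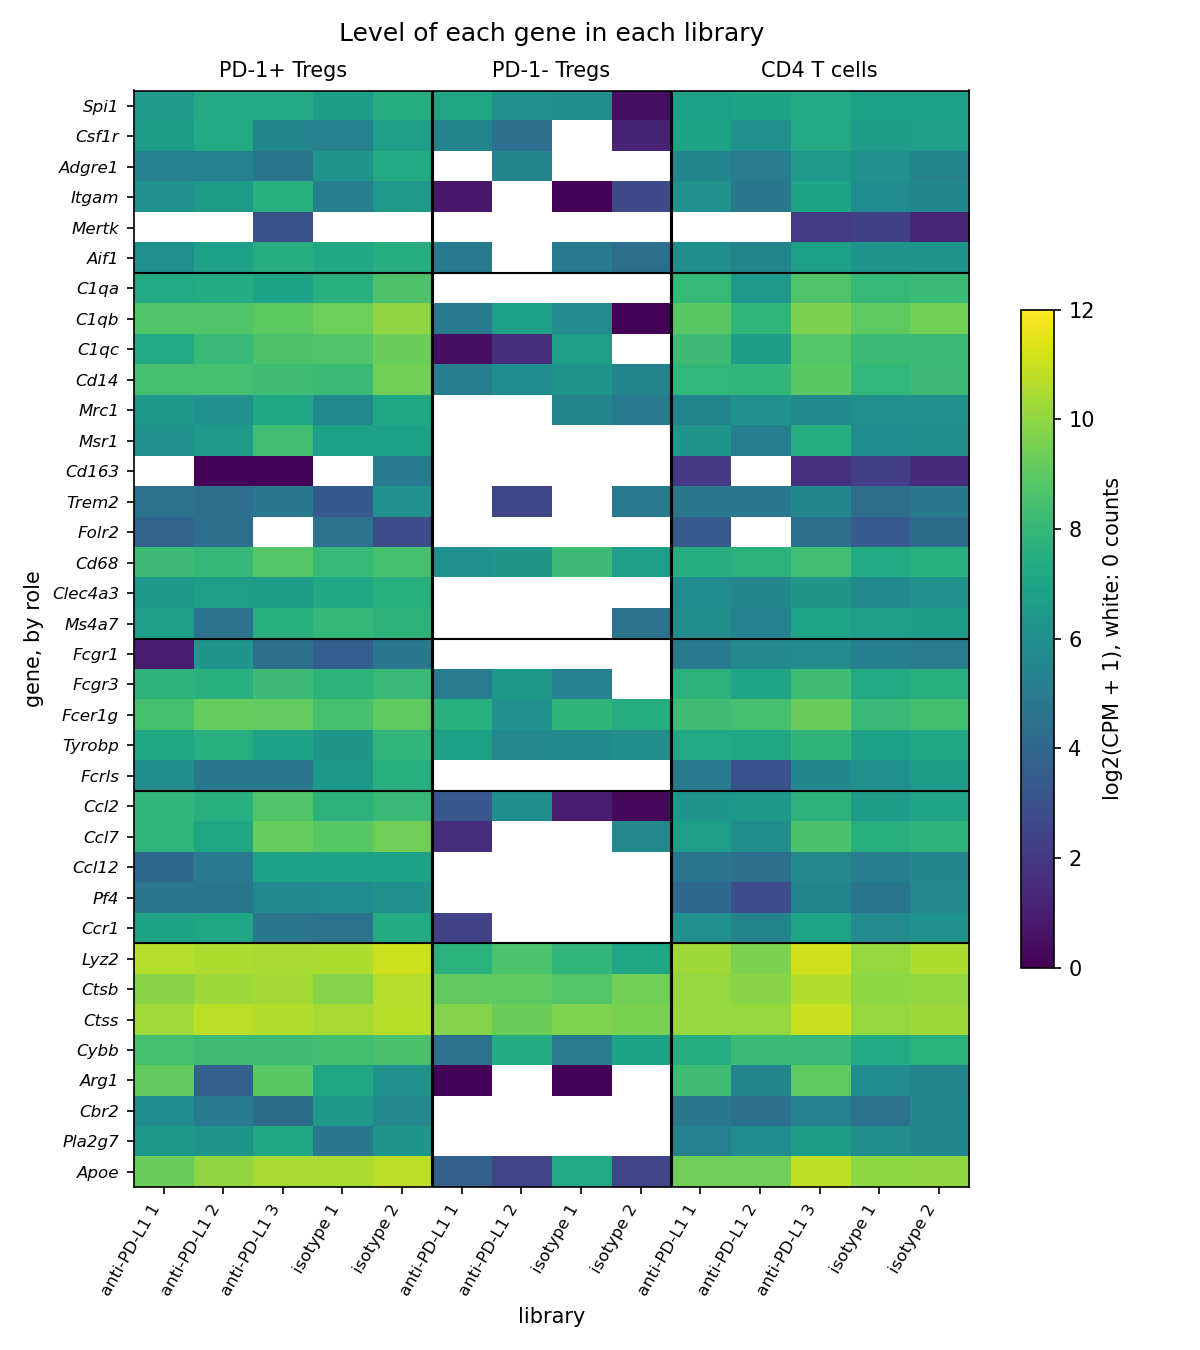
Level of each of the 36 genes as log2(CPM + 1) in each library, grouped by role (lineage, complement with scavenger and surface receptors, Fc receptors and adaptors, chemokines with Ccr1, and lysosome, enzymes and lipid transport), with 0 counts in white. White cells lie mostly in PD-1- Tregs, where 16 to 19 of the 36 genes had 0 counts, against 1 to 2 in PD-1+ Tregs and 0 to 3 in CD4 T cells.

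PD-1+ Tregs carried more of these transcripts than PD-1- Tregs: 26 of the 36 genes were higher past an adjusted p of 0.05 and 0 lower. Among all 13434 genes tested, 3.80% were called higher and 0.476% lower in this comparison. In 27 of the 36 genes every PD-1+ library exceeded every PD-1- library, against 3.24% of all genes. The median log2 fold change over the 36 genes was 6.10 as fitted and 3.86 with groups at 0 set to the 3-count limit, beside 0.42 and 0.16 over all genes tested. In 12 of the 36 genes all 4 PD-1- libraries had 0 counts, so these genes passed the filter on low counts only through the other populations. Without the 3 libraries with Y-linked reads 20 of 36 were called, of which 18 were among the 26, and C1qc, Ccl7, Cd68, Csf1r, Ctsb, Fcgr1, Itgam and Ms4a7 missed the threshold. With the fit of all 14 libraries kept and only the anti-PD-L1 groups compared, 15 were called, and with only the isotype groups compared 12. Of all genes, 1.77% and 0.871% were then called in either direction, against 4.28% in the main comparison. With the sample number of the titles as a block within treatment 13 of the 36 were called, beside 0.625% of all genes. Leaving out 1 of the 14 libraries at a time ended the call of Adgre1 in 12 cases, of Cd68 in 11, of C1qc in 10 and of Ccl7 in 7. The highest adjusted p in those fits was 0.0997 for Adgre1, 0.0988 for Cd68, 0.073 for C1qc and 0.0731 for Ccl7. Without PD-1+ isotype replicate 2 the calls of Csf1r, Fcer1g, Ctss and Itgam were also lost, Csf1r was lost in 1 more case and Fcer1g in 2 more. Adgre1 had an adjusted p of 0.971 with only the anti-PD-L1 groups compared. Errors below are SDs over 5 PD-1+ and 4 PD-1- Treg libraries unless named as SE.

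**Figure D3:**
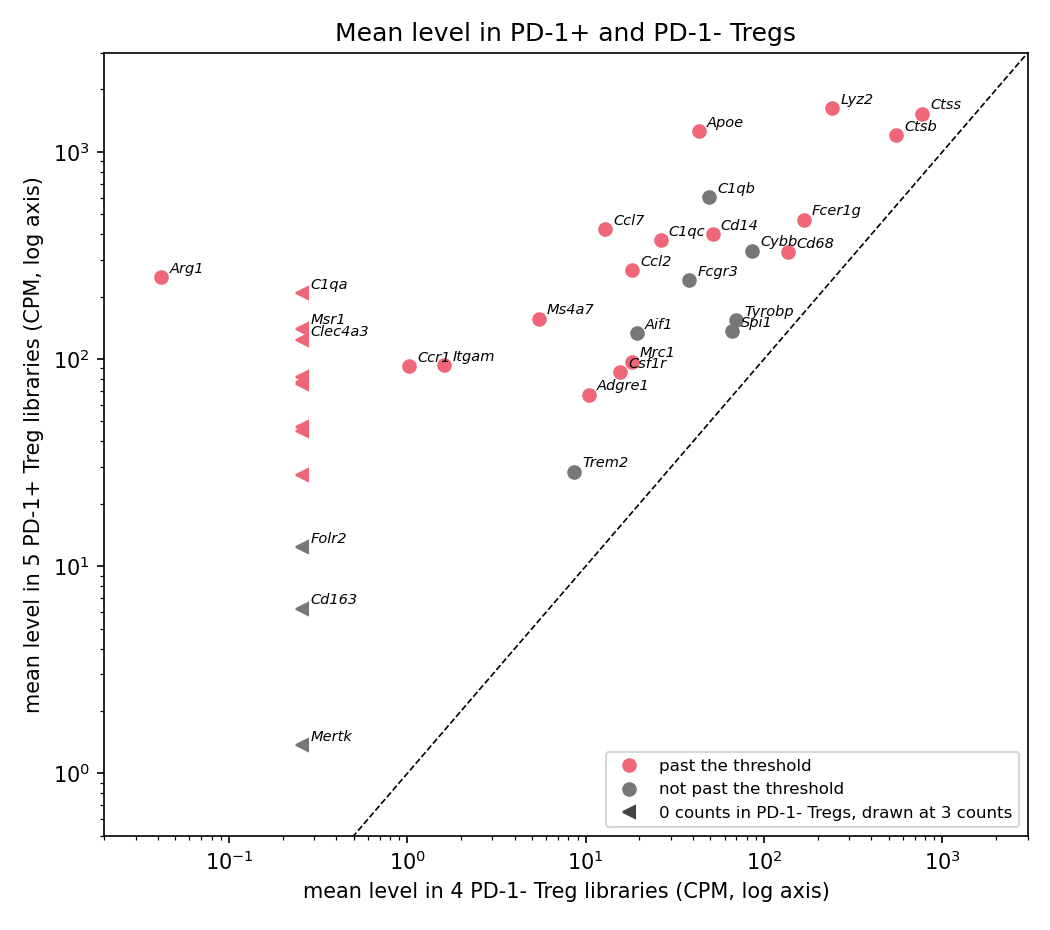
Mean level of each gene in 5 PD-1+ Treg libraries (vertical axis, CPM, log scale) against its mean in 4 PD-1- Treg libraries (horizontal axis, CPM, log scale), with the dashed line at equal levels. All 36 genes lay above the line, 26 of them past the threshold, and the triangles mark genes with 0 counts in PD-1- Tregs, drawn at the mean limit of 3 counts. Arg1 had 2 counts in PD-1- Tregs and is drawn at its own mean, to the left of that limit.

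The lineage genes gave 3 calls out of 6. Csf1r, the receptor for the growth factor that keeps macrophages alive, had 95.9, 156 and 42.2 CPM in anti-PD-L1 and 36.5 and 101 CPM in isotype PD-1+ Tregs, against 41.1 and 19.9 CPM in anti-PD-L1 and 0 and 1.27 CPM in isotype PD-1- Tregs. Those ranges overlapped by a single PD-1- library, and Csf1r rose in PD-1+ Tregs (adjusted p = 0.0222). Adgre1, which encodes the F4/80 antigen, averaged 67.3 ± 56.5 CPM in PD-1+ and 10.4 ± 20.8 CPM in PD-1- Tregs, where 1 of 4 libraries held all its counts (adjusted p = 0.0457). Itgam, the integrin chain CD11b, averaged 93.1 ± 55.0 CPM in PD-1+ and 1.61 ± 2.69 CPM in PD-1- Tregs (adjusted p = 0.0196). In PD-1+ Tregs the isotype libraries of Adgre1 stood above the anti-PD-L1 libraries, and the lowest library of Itgam held 34.2 CPM. Spi1, which encodes PU.1, did not pass: it had 85.8, 162 and 161 CPM in anti-PD-L1 and 97.4 and 174 CPM in isotype PD-1+ Tregs, against 134 and 69.2 CPM in anti-PD-L1 and 62.5 and 0.362 CPM in isotype PD-1- Tregs (adjusted p = 0.452). Aif1, a calcium-binding protein of macrophages, averaged 133 ± 48.3 CPM in PD-1+ and 19.3 ± 13.6 CPM in PD-1- Tregs and did not pass either (adjusted p = 0.14). Mertk, a receptor for dying cells, had counts in 1 PD-1+ and no PD-1- library.

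Complement C1q is assembled from 3 chains whose genes lie side by side on mouse chromosome 4 (C1qa at 136895916 to 136898844, C1qb at 136880126 to 136886200 and C1qc at 136889801 to 136892936, RefSeq on GRCm38, the assembly named mm10). C1qa had 155, 165 and 122 CPM in anti-PD-L1 and 198 and 396 CPM in isotype PD-1+ Tregs, and 0 counts in all 4 PD-1- Treg libraries. Taking 3 counts per library as the limit, which covers counting error alone, it was at least 809.5-fold higher in PD-1+ Tregs (adjusted p = 7.49e-05). C1qc had 158, 269 and 397 CPM in anti-PD-L1 and 421 and 635 CPM in isotype PD-1+ Tregs, against 0.37 and 1.93 CPM in anti-PD-L1 and 103 and 0 CPM in isotype PD-1- Tregs, and rose in PD-1+ Tregs (adjusted p = 0.0325). Per length, C1qa, C1qb and C1qc averaged 163, 464 and 302 RPKM (reads per kilobase of gene and per 1e+06 reads) in PD-1+ Tregs, 0, 38.9 and 20.2 RPKM in PD-1- Tregs and 216, 441 and 240.1 RPKM in CD4 T cells. C1qb thus had the highest level of the trio in all populations, and it was the chain whose difference between PD-1+ and PD-1- Tregs missed the threshold: 427, 422 and 504 CPM in anti-PD-L1 and 660.5 and 1015 CPM in isotype PD-1+ Tregs, against 30.9 and 111 CPM in anti-PD-L1 and 54.3 and 0.0905 CPM in isotype PD-1- Tregs (adjusted p = 0.0514). In PD-1- Tregs the chains were not found together: C1qa was at 0 in the library with 111 CPM of C1qb and in the library with 103 CPM of C1qc. These are single libraries of replicates that differed beyond sampling noise. Whether the proportion of the chains differed in the cells was not tested.

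**Figure D4:**
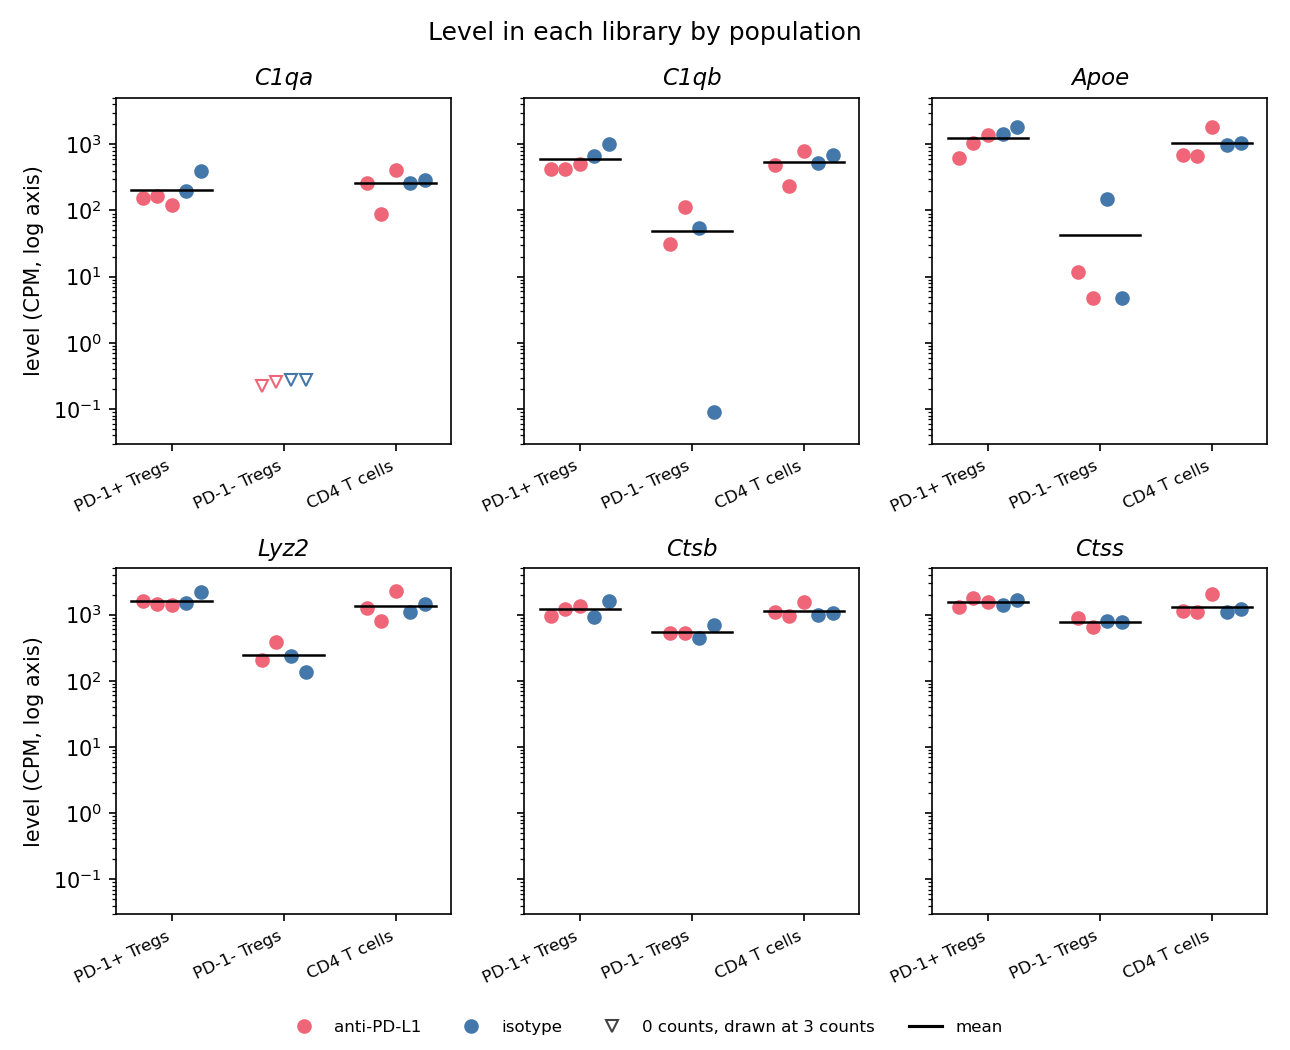
Level (CPM, log axis) of 6 of the genes in each library by population, with anti-PD-L1 in red, isotype in blue and the population mean as a line. C1qa was at 0 counts in all 4 PD-1- Treg libraries (open triangles at 3 counts), while Ctsb and Ctss stayed at 445 CPM or more in every PD-1- Treg library.

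Scavenger and surface receptors followed the same direction. Msr1, a scavenger receptor for modified lipoproteins, had 70.8, 88.8 and 319 CPM in anti-PD-L1 and 109 and 113 CPM in isotype PD-1+ Tregs and 0 counts in all 4 PD-1- Treg libraries, at least 547-fold higher in PD-1+ Tregs (adjusted p = 0.00063). Clec4a3, a lectin of the monocyte and macrophage surface, had 84.2, 106 and 94.3 CPM in anti-PD-L1 and 140.0 and 195 CPM in isotype PD-1+ Tregs and 0 counts in all 4 PD-1- Treg libraries, at least 483-fold higher (adjusted p = 7.49e-05). Mrc1, the mannose receptor CD206, had 83.6, 65.5 and 139 CPM in anti-PD-L1 and 53.0 and 145 CPM in isotype PD-1+ Tregs, against 0 and 0 CPM in anti-PD-L1 and 43.7 and 28.7 CPM in isotype PD-1- Tregs (adjusted p = 0.000962). All 5 PD-1+ libraries exceeded all 4 PD-1- libraries in each of these receptors. Cd14, the co-receptor for bacterial lipopolysaccharide, had 354, 354 and 309.9 CPM in anti-PD-L1 and 286 and 698 CPM in isotype PD-1+ Tregs, against 34.1 and 56.1 CPM in anti-PD-L1 and 73.9 and 41.6 CPM in isotype PD-1- Tregs, a log2 fold change of 3.00 ± 0.35 (SE, adjusted p = 0.00127). Ms4a7, a membrane protein of macrophages, averaged 157 ± 92.4 CPM in PD-1+ and 5.45 ± 10.9 CPM in PD-1- Tregs, where 1 of 4 libraries held all its counts (adjusted p = 0.0143). Cd68, a lysosomal membrane protein, averaged 327 ± 87.2 CPM in PD-1+ and 137 ± 111 CPM in PD-1- Tregs with overlapping ranges (adjusted p = 0.0366). Trem2, a lipid receptor, did not pass, with 28.6 ± 22.3 CPM in PD-1+ and 8.64 ± 14.2 CPM in PD-1- Tregs. Folr2 and Cd163, both markers of resident macrophages, were scarce: they averaged 12.4 ± 9.21 and 6.24 ± 13.8 CPM in PD-1+ Tregs and had 0 counts in all PD-1- Tregs, and neither passed.

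Of the Fc receptor genes and their adaptors 3 of 5 were called. Fcgr1, the high-affinity IgG receptor, had 0.943, 78.5 and 19.8 CPM in anti-PD-L1 and 11.2 and 27.0 CPM in isotype PD-1+ Tregs and 0 counts in all 4 PD-1- Treg libraries, at least 107-fold higher in PD-1+ Tregs (adjusted p = 0.0122). Its PD-1+ values spread widely, and 1 library lay under 1 CPM. Fcrls, a scavenger-type Fc receptor-like protein, had 59.7, 26.6 and 25.7 CPM in anti-PD-L1 and 84.1 and 181 CPM in isotype PD-1+ Tregs and 0 counts in all 4 PD-1- Treg libraries, at least 294-fold higher (adjusted p = 0.00153). Fcer1g, the signalling gamma chain that several Fc receptors share, had 359, 564 and 557 CPM in anti-PD-L1 and 358 and 518 CPM in isotype PD-1+ Tregs, against 197 and 65.2 CPM in anti-PD-L1 and 227 and 177 CPM in isotype PD-1- Tregs, a log2 fold change of 1.52 ± 0.33 (SE, adjusted p = 0.0254). Fcgr3 averaged 239.7 ± 44.5 CPM in PD-1+ and 38.2 ± 34.7 CPM in PD-1- Tregs, and Tyrobp, the adaptor DAP12, 153 ± 61.1 and 69.6 ± 30.7 CPM, and both missed the threshold (adjusted p = 0.114 and 0.105). Both adaptors were measured in every PD-1- library, Fcer1g at 65.2 CPM or more and Tyrobp at 48.8 CPM or more.

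All 4 chemokine genes and the receptor gene Ccr1 were called. Ccl2, Ccl7 and Ccl12, ligands of the monocyte receptor CCR2, lie within a cluster on chromosome 11 (82035577 to 82037452, 82045712 to 82047525 and 82101845 to 82103399). Ccl2 had 237, 183 and 428 CPM in anti-PD-L1 and 212 and 281 CPM in isotype PD-1+ Tregs, against 8.57 and 62.7 CPM in anti-PD-L1 and 0.931 and 0.181 CPM in isotype PD-1- Tregs, a log2 fold change of 5.88 ± 0.73 (SE, adjusted p = 0.00157). Ccl7 had 235, 136 and 580.3 CPM in anti-PD-L1 and 476 and 684 CPM in isotype PD-1+ Tregs, against 2.00 and 0 CPM in anti-PD-L1 and 0 and 49.4 CPM in isotype PD-1- Tregs (adjusted p = 0.0311). Ccl12 had 15.1, 30.0 and 114 CPM in anti-PD-L1 and 116 and 114 CPM in isotype PD-1+ Tregs and 0 counts in all 4 PD-1- Treg libraries, at least 304-fold higher in PD-1+ Tregs (adjusted p = 0.00172). In PD-1- Tregs Ccl2 had counts in all 4 libraries, Ccl7 in 2 and Ccl12 in none. Replicates differed beyond sampling noise there, and whether the neighbours differ in the cells was not tested. Pf4, platelet factor 4, averaged 45.1 ± 19.5 CPM in PD-1+ Tregs and had 0 counts in all 4 PD-1- Treg libraries, at least 176-fold higher in PD-1+ Tregs (adjusted p = 0.00403). Ccr1, a receptor for inflammatory chemokines, averaged 92.8 ± 65.0 CPM in PD-1+ Tregs and 1.02 ± 2.03 CPM in PD-1- Tregs, where 1 of 4 libraries held all its counts (adjusted p = 0.0113).

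Among lysosomal, enzyme and lipid genes 7 of 8 were called, and these included the most abundant transcripts. Lyz2, lysozyme of macrophages and granulocytes, had 1612, 1449 and 1386 CPM in anti-PD-L1 and 1488 and 2203 CPM in isotype PD-1+ Tregs, against 202 and 385 CPM in anti-PD-L1 and 239 and 137 CPM in isotype PD-1- Tregs. Its log2 fold change was 2.82 ± 0.33 (SE, adjusted p = 0.00119), and it had the highest level per length of the 36 genes in PD-1+ Tregs (1294 RPKM) and CD4 T cells (1149 RPKM). Apoe, the lipid carrier apolipoprotein E, had 618, 1033 and 1399 CPM in anti-PD-L1 and 1444 and 1809.5 CPM in isotype PD-1+ Tregs, against 11.8 and 4.71 CPM in anti-PD-L1 and 151 and 4.70 CPM in isotype PD-1- Tregs, a log2 fold change of 5.66 ± 0.85 (SE, adjusted p = 0.00438). A single isotype library held most of the Apoe in PD-1- Tregs, and it lay below every PD-1+ library. Ctsb had 942, 1228 and 1340.4 CPM in anti-PD-L1 and 908 and 1604 CPM in isotype PD-1+ Tregs, against 531 and 527 CPM in anti-PD-L1 and 445 and 687 CPM in isotype PD-1- Tregs, with a log2 fold change of 1.15 ± 0.22 (SE, adjusted p = 0.0126). Ctss, which trims the invariant chain of MHC class II, had 1279.5, 1767 and 1562 CPM in anti-PD-L1 and 1371 and 1663 CPM in isotype PD-1+ Tregs, against 874 and 641 CPM in anti-PD-L1 and 812 and 759 CPM in isotype PD-1- Tregs, with a log2 fold change of 0.99 ± 0.20 (SE, adjusted p = 0.0167). Ctss had the highest level per length of the 36 genes in PD-1- Tregs, 492 RPKM, and Ctsb and Ctss had the smallest fold changes of the 26 genes called. Statistics of genes beyond the 12 with the largest fold changes were chosen for print after their values were seen, here and in the comparison of PD-1- Tregs with CD4 T cells.

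Pla2g7, Cbr2 and Arg1 were at or near 0 in PD-1- Tregs. Pla2g7, which degrades platelet-activating factor, averaged 81.6 ± 42.5 CPM in PD-1+ Tregs and had 0 counts in all 4 PD-1- Treg libraries, at least 319-fold higher in PD-1+ Tregs (adjusted p = 0.000677). Cbr2, a carbonyl reductase, had 55.2, 29.6 and 17.9 CPM in anti-PD-L1 and 82.8 and 49.1 CPM in isotype PD-1+ Tregs and 0 counts in all 4 PD-1- Treg libraries, at least 183-fold higher (adjusted p = 0.00294). Arg1, the arginase that depletes arginine in tumours, had 528, 12.2 and 494 CPM in anti-PD-L1 and 133 and 70.5 CPM in isotype PD-1+ Tregs, and 2 counts over the 4 PD-1- libraries. The pooled ratio for Arg1 was 5528 with a 95% counting interval of 1529.9 to 45647 (adjusted p = 0.00177). Cybb, the core chain of the phagocyte oxidase, averaged 334 ± 28.2 CPM in PD-1+ and 86.0 ± 70.7 CPM in PD-1- Tregs and just missed the threshold (adjusted p = 0.0537), although its ranges did not overlap.

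PD-1- Tregs also stood below CD4 T cells: 21 of the 36 genes fell and 0 rose, beside 3.33% of all genes that fell and 0.275% that rose. Every PD-1- library was below every CD4 library in 25 of the 36 genes, and in 13.0% of all genes tested. The median log2 fold change was -5.61 as fitted and -3.26 with groups at 0 set to the limit, beside -0.94 and -0.26 over all genes, so that genes in general were also lower in PD-1- Tregs here. Without the 3 libraries with Y-linked reads 16 fell. In the fit of all 14 libraries, 12 fell with only the anti-PD-L1 groups compared and 12 with only the isotype groups compared. Of all genes, 0.841% and 0.96% were then called in either direction, against 3.6% in the main comparison. With the sample number of the titles as a block within treatment 13 of the 36 fell, beside 0.387% of all genes called in either direction. The comparison with PD-1+ Tregs uses the same PD-1- libraries.

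C1qa had 265, 89.8 and 413 CPM in anti-PD-L1 and 259.5 and 286 CPM in isotype CD4 T cells and was at least 1025-fold lower in PD-1- Tregs (adjusted p = 9.04e-05). Msr1, Clec4a3 and Pla2g7 averaged 81.2 ± 57.0, 60.8 ± 13.7 and 59.6 ± 22.2 CPM in CD4 T cells (SD, n = 5) and were at least 317-, 238- and 233-fold lower in PD-1- Tregs (adjusted p = 0.000831, 0.000135 and 0.000831). Fcrls, Fcgr1, Ccl12, Cbr2 and Pf4 were at least 186-, 156-, 133-, 117- and 108-fold lower in PD-1- Tregs (adjusted p from 0.00185 to 0.0122). Apoe had 677, 672 and 1819.5 CPM in anti-PD-L1 and 984 and 1029 CPM in isotype CD4 T cells and fell by 5.34 ± 0.84 on the log2 scale in PD-1- Tregs (SE, adjusted p = 0.00656). Lyz2 had 1236, 785 and 2231 CPM in anti-PD-L1 and 1102 and 1457 CPM in isotype CD4 T cells and fell by 2.52 ± 0.32 (SE, adjusted p = 0.00205). Arg1 averaged 193 ± 213 CPM in CD4 T cells, Ccr1 had 66.3, 40.9 and 128 CPM with anti-PD-L1 and 54.3 and 70.0 CPM with isotype, Ms4a7 ranged over 38.5 to 129 CPM, and all of them fell in PD-1- Tregs (adjusted p = 0.00286, 0.0166 and 0.024). Cd14, Ccl2, Csf1r, Itgam, Mrc1, C1qc and Ctsb completed the genes that fell. Leaving out 1 of the 14 libraries at a time ended the call of C1qc in 11 cases, of Ctsb and Ms4a7 in 5 and of Csf1r and Itgam in 4. Ctss had 1143, 1099.7 and 2044 CPM in anti-PD-L1 and 1082 and 1229 CPM in isotype CD4 T cells and missed the threshold (log2 fold change -0.74 ± 0.20, SE, adjusted p = 0.0582), as did Adgre1, Ccl7, Fcer1g and Cd68.

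Between PD-1+ Tregs and CD4 T cells 0 of the 36 genes passed in edgeR's test, where 0.350% of all genes did in either direction, and 1 of the 36 had an unadjusted p under 0.05. DESeq2 called 1 of the 36, beside 5.52% of all genes. PD-1+ Tregs had the higher fitted level in 31 genes and the lower in 5, with a median log2 fold change of 0.40, beside -0.23 over all genes. Clec4a3 (124 ± 44.8 CPM in PD-1+ Tregs and 60.8 ± 13.7 CPM in CD4 T cells) and Cybb (334 ± 28.2 and 221 ± 58.4 CPM) were higher in every PD-1+ library than in any CD4 library, which held for 1.71% of all genes. The CD4 values of Cybb were 178, 288 and 277 CPM with anti-PD-L1 and 159 and 204 CPM with isotype. Apart from the scarce Cd163, the chemokines had the largest ratios of means, 2.25 for Ccl2, 2.24 for Ccl7 and 2.28 for Ccl12, with log2 fold changes of 1.16 ± 0.54, 1.17 ± 1.07 and 1.17 ± 0.79 (SE). C1qa ran the other way, at 207 ± 109 CPM in PD-1+ Tregs and 263 ± 115 CPM in CD4 T cells (-0.33 ± 0.39, SE). A p that misses the threshold does not show that the populations held equal levels, and for Ccl7 and Ccl12 the standard errors were as large as 1.07 and 0.79.

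The genes without counts in PD-1- Tregs can be counted without a model, as a description and not a test. The 36 genes were chosen with earlier results of these data known, and those at 0 in PD-1- Tregs passed the filter only through the other populations. PD-1- Tregs also had the fewest genes detected, 8027 to 8801 per library. Genes with 0 counts in all 4 PD-1- Treg libraries and at least 1 count in each of the other 10 libraries were 9 of the 36 (C1qa, Msr1, Clec4a3, Fcgr1, Fcrls, Ccl12, Pf4, Cbr2 and Pla2g7), beside 100 of 13434 genes, or 0.744%. Cd163, Folr2 and Mertk were also at 0 in PD-1- Tregs but lacked counts in some of the other libraries. The other 24 genes had counts in at least 1 PD-1- library, and 12 of them in all 4 (Spi1, C1qb, Cd14, Cd68, Fcer1g, Tyrobp, Ccl2, Lyz2, Ctsb, Ctss, Cybb and Apoe).

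Anti-PD-L1 treatment was set against isotype within each population. In PD-1+ Tregs 0 of the 36 genes passed, beside 0.0149% of all genes, and 1 of the 36 had an unadjusted p under 0.05. The limma-voom and DESeq2 fits also called 0, beside 1.14% and 4.6% of all genes. In 9 genes all 3 anti-PD-L1 libraries were below both isotype libraries (Adgre1, C1qa, C1qb, C1qc, Clec4a3, Ms4a7, Fcrls, Pf4 and Apoe), which held for 11.5% of all genes. C1qa averaged 148 ± 22.4 CPM in anti-PD-L1 (SD, n = 3) and 297 ± 139.7 CPM in isotype PD-1+ Tregs (SD, n = 2), a log2 fold change of -1.01 ± 0.54 (SE, adjusted p = 0.666). Fcrls averaged 37.3 ± 19.4 CPM in anti-PD-L1 and 133 ± 68.4 CPM in isotype PD-1+ Tregs (-1.83 ± 1.03, SE). Those differences lay within about 2 standard errors. In CD4 T cells 0 of the 36 passed (0.00744% of all genes), 0 had an unadjusted p under 0.05, and DESeq2 and limma-voom called 0, beside 0.402% and 0.00744% of all genes. Fcrls was the gene with every anti-PD-L1 library below every isotype library there, at 28.7, 7.00 and 45.9 CPM against 63.4 and 93.8 CPM, as 15.5% of all genes were.

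In PD-1- Tregs 1 gene rose and 1 fell with anti-PD-L1, beside 1.38% and 1.29% of all genes. Mrc1 had 0 counts in both anti-PD-L1 libraries, against 43.7 and 28.7 CPM in the isotype libraries. It was thus at least 153-fold lower by the 3-count limit, which covers counting error alone (adjusted p = 0.00204). Replicate libraries differed beyond sampling noise, so a smaller fold is not excluded. Ccl2 had 8.57 and 62.7 CPM in anti-PD-L1 and 0.931 and 0.181 CPM in isotype PD-1- Tregs, a log2 fold change of 5.98 ± 1.06 (SE, adjusted p = 0.0116), and the isotype values stood for 10 and 2 counts. The values did not overlap, but each group held 2 libraries, and with a fit of PD-1- Tregs alone 0 of the 36 genes passed, beside 0.0521% of all genes. Without the library with Y-linked reads, which is 1 of the 2 anti-PD-L1 libraries, both calls remained, with a log2 fold change of 3.90 for Ccl2. Without isotype replicate 1 that of Ccl2 was 7.54. The limma-voom fit called Mrc1 and not Ccl2 (adjusted p = 0.00057 and 0.243). Every anti-PD-L1 library was above every isotype library in 3 genes (Ccl2, Csf1r and Spi1; 12.5% of all genes) and below in 2 (Mrc1 and Cd68; 14.0% of all genes). Csf1r had 41.1 and 19.9 CPM in anti-PD-L1 and 0 and 1.27 CPM in isotype PD-1- Tregs and missed the threshold (adjusted p = 0.0537).

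**Figure D5:**
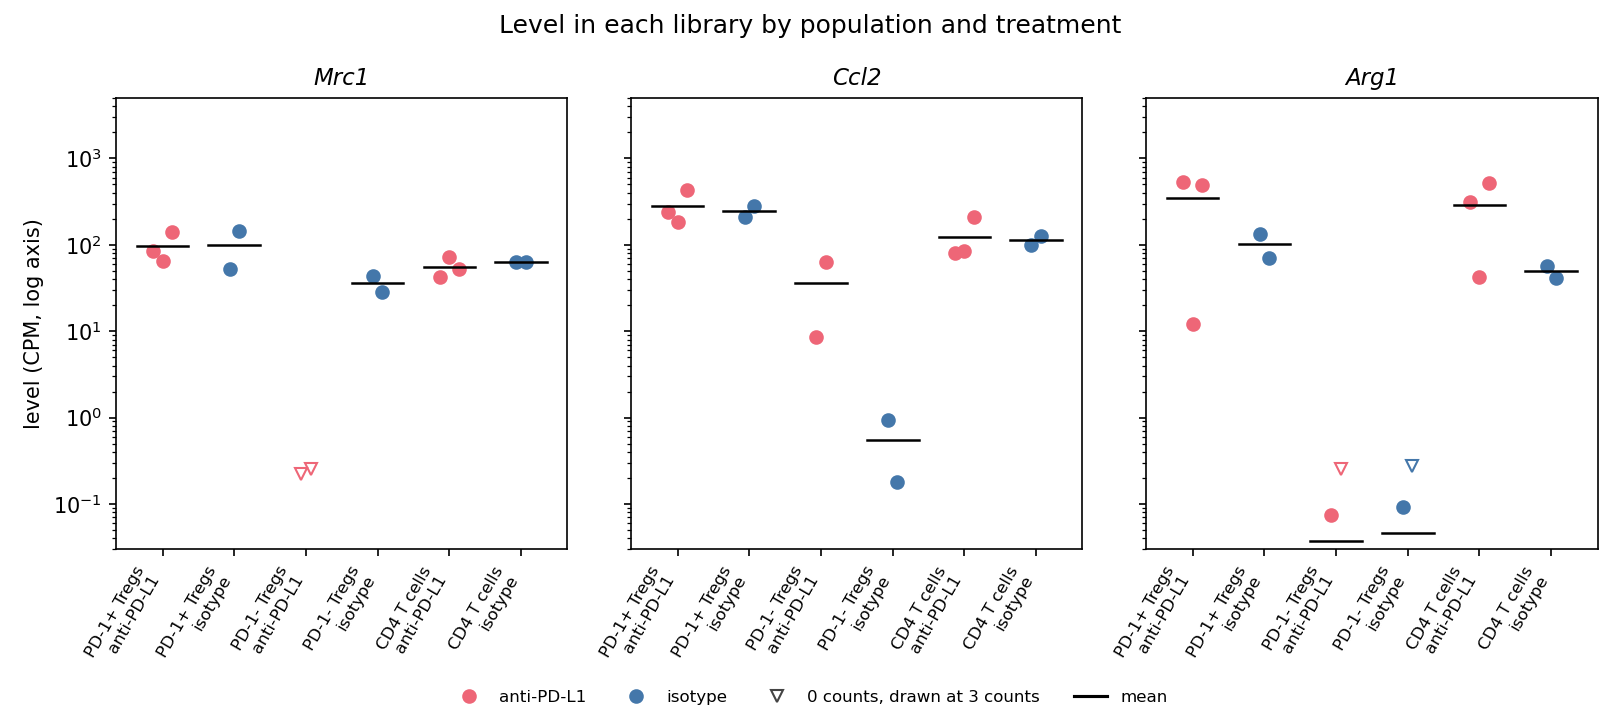
Level (CPM, log axis) of Mrc1, Ccl2 and Arg1 in each library by population and treatment, with group means as lines (means include libraries at 0) and 0 counts as open triangles at 3 counts. In PD-1- Tregs Mrc1 was at 0 in both anti-PD-L1 libraries and at 43.7 and 28.7 CPM in isotype libraries, while Ccl2 was at 8.57 and 62.7 CPM in anti-PD-L1 and 0.931 and 0.181 CPM in isotype libraries.

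Whether these effects differed between populations was tested directly. The anti-PD-L1 effect in PD-1+ minus that in PD-1- Tregs was higher for Mrc1 and lower for Ccl2 (1 gene each, beside 0.841% and 0.618% of all genes). In PD-1+ Tregs Mrc1 had 83.6, 65.5 and 139 CPM with anti-PD-L1 and 53.0 and 145 CPM with isotype, and Ccl2 had 237, 183 and 428 CPM with anti-PD-L1 and 212 and 281 CPM with isotype, so that the treatments overlapped for both genes. The difference was -5.78 ± 1.23 on the log2 scale for Ccl2 (SE, adjusted p = 0.0415), and for Mrc1 the adjusted p was 0.00728. The effect in PD-1- Tregs minus that in CD4 T cells was higher for Ccl2 (5.84 ± 1.23, SE, adjusted p = 0.0488) and lower for Mrc1 (adjusted p = 0.00719), beside 0.447% and 0.529% of all genes. In CD4 T cells Mrc1 had 42.0, 71.7 and 52.4 CPM with anti-PD-L1 and 63.2 and 63.3 CPM with isotype, and Ccl2 79.2, 84.0 and 207 CPM with anti-PD-L1 and 98.5 and 126 CPM with isotype. With the sample number of the titles as a block within treatment, neither gene passed edgeR's test in either difference, where 0.0744% and 0.067% of all genes did. The adjusted p was then 0.0877 and 0.097 for Mrc1 and 0.103 and 0.104 for Ccl2, against PD-1+ Tregs and CD4 T cells in turn. Between PD-1+ Tregs and CD4 T cells 0 of the 36 effects differed (0% of all genes), and 0 had an unadjusted p under 0.05. DESeq2 and limma-voom called 0 there, beside 2.04% and 0.0447% of all genes. The difference for Ccl2 lost its call when any of 12 of the 14 libraries was left out, with adjusted p up to 0.135 against PD-1+ Tregs and 0.186 against CD4 T cells. The difference for Mrc1 from CD4 T cells was lost without either isotype CD4 library (adjusted p = 0.0931 and 0.0845).

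Arg1, picked out after its values were seen, spread widely between libraries of one group. It had 528, 12.2 and 494 CPM in anti-PD-L1 and 133 and 70.5 CPM in isotype PD-1+ Tregs, and 309, 42.3 and 515 CPM in anti-PD-L1 and 57.2 and 41.7 CPM in isotype CD4 T cells. In both populations anti-PD-L1 replicate 2 was the low one, and its level lay below or within the isotype range. The log2 fold changes with treatment were 1.76 ± 1.22 (SE) for PD-1+ Tregs and 2.55 ± 1.26 (SE) for CD4 T cells, and neither passed (adjusted p = 0.816 and 1).

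A second list of 51 macrophage and monocyte genes, chosen with earlier results of these data known, gave 50 genes that were tested. In PD-1+ against PD-1- Tregs 21 of the 50 rose and 0 fell, with a median log2 fold change of 2.84 as fitted and 1.86 with groups at 0 set to the limit. Over all genes tested 3.80% rose, and the medians were 0.42 and 0.16. The largest changes with PD-1- Tregs at 0 were those of the anaphylatoxin receptors C3ar1 (102 CPM in PD-1+ Tregs, at least 399-fold higher, adjusted p = 0.000334) and C5ar1 (98.5 CPM, at least 384-fold higher, adjusted p = 0.0015) and of the inhibitory receptor Pirb (27.6 CPM, at least 108-fold higher, adjusted p = 0.00482). Against CD4 T cells 15 of the 50 fell in PD-1- Tregs and 0 rose, beside 3.33% and 0.275% of all genes. Between PD-1+ Tregs and CD4 T cells 0 of the 50 passed, beside 0.350% of all genes, with 6 at an unadjusted p under 0.05. With anti-PD-L1 in PD-1- Tregs 2 of the 50 fell and 0 rose, beside 1.29% and 1.38% of all genes. Sirpa, the receptor for the CD47 signal, fell to 0 counts in both libraries, against a mean of 39.2 CPM with isotype (adjusted p = 0.00334), and Wfdc17 averaged 24.4 CPM with anti-PD-L1 and 129.5 CPM with isotype (adjusted p = 0.0479).

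Some of the genes share sequence with others, which counting could split. Stretches of 50 bases from the transcripts (GENCODE M21) were also found in transcripts of another gene for 68.5% of Itgam (predicted gene Gm49368), 46.7% of Folr2 (Gm10602), 16.4% of Csf1r (Hmgxb3), 15.4% of Lyz2 (Lyz1), 15.4% of Ctsb (Fdft1), 14.4% of Cbr2 (Gm11771) and 10.2% of Fcgr3 (Fcgr2b). Itgam and Folr2 had the largest shared parts of the 36, while the C1q chains, Mrc1 and Cd14 shared no such stretch. The annotation used for counting is not given, so whether counts were split was not tested.

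Since many of the genes were low in the same libraries, their promoters were searched for 1 short motif, GAGGAAGT, a typical binding sequence of PU.1, on both strands. The windows (250 bases before to 50 after each annotated start, RefSeq, GRCm38.p6) covered 25 of the 36 genes, of which 3 (12%) held it, beside 997 of 27025 genes (3.69%) overall. The 3 windows, shown because they hold the match, belong to C1qc (chr4:136892865-136893164, minus strand), Ctss (chr3:95526536-95526835, plus strand) and Pf4 (chr5:90772185-90772484, plus strand). Each is written 5′ to 3′ on the strand of its gene, and capitals mark the motif, which lies on the opposite strand in all 3 and so reads ACTTCCTC.
C1qc: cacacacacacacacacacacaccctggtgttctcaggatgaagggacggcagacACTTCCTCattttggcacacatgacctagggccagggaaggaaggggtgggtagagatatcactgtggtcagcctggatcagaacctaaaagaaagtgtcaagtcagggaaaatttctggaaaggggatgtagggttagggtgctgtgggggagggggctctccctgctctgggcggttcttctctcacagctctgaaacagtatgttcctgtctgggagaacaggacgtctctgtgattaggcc
Ctss: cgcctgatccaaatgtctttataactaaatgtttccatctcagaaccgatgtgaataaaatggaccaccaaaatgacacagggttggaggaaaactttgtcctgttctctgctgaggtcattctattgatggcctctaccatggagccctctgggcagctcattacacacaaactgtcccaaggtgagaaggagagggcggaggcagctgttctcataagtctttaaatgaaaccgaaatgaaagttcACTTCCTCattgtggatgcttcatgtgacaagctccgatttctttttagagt
Pf4: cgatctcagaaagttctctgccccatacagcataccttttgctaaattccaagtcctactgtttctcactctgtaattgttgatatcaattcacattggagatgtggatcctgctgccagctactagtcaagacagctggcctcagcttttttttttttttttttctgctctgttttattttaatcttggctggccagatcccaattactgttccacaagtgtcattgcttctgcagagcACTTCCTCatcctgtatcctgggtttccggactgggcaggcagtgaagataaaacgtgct
The match began at position -195 relative to the annotated start in C1qc, at -2 in Ctss and at -10 in Pf4. In PD-1- Tregs Pf4 was at 0, C1qc averaged 26.3 ± 51.0 CPM and Ctss 771 ± 98.8 CPM (SD, n = 4), so the genes that hold the motif did not share a level there. A match is a description of these letters and not a measured site.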

How the data were processed

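RNA-seq read counts per gene, deposited by the authors, were analysed for 14 libraries, together with the RPKM values the authors deposited in a second table. Per the submitters' processing notes, HISAT2 2.0.4, SAMtools, HOMER 3.12, DESeq2 and the build mm10 were used, and no source used here gives the strand setting or the annotation. Libraries held 10638848 to 15030804 counts, and each was assigned to its group by its title. Counts were scaled by TMM (trimmed mean of M values) to CPM and tested with edgeR 4.0.16 (quasi-likelihood F-test, 1 fit of 6 group means, R 4.3.3) over the 13434 genes that passed filterByExpr with a minimum count of 10, with Benjamini-Hochberg adjustment over all of them and a threshold of 0.05. All 36 genes passed the filter. Comparisons of populations weight both treatments equally. RPKM served for levels between genes and, as log2(RPKM + 1) and log2(RPKM + 0.1) in limma 3.58.1, as alternatives beside DESeq2 1.42.0, limma-voom, RLE size factors, no filter, other sample sets, a replicate block and leaving out each library. The fit was tested on simulated data. Replicates differed beyond sampling noise (chi-square per degree of freedom of 28.7 or more), so none was merged. The 36 genes and all marker lists were chosen with earlier results of these data known. All 36 genes are accounted for, with full statistics for those past the threshold or, beyond 12 in a comparison, for the 12 with the largest fold changes, and exceptions are named. No p-value is given over the 36 genes together. For a gene with no count in an arm, fold bounds take 3 counts per library as the limit and cover counting error alone. Promoter sequences are from RefSeq on GRCm38.p6.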

Additional observations from a re-analysis of the deposited data

Results flagged for a closer look

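The anti-PD-L1 effect on Ccl2, which encodes a chemokine for monocytes, differed between PD-1+ and PD-1- Tregs (adjusted p = 0.0415 in edgeR's quasi-likelihood test of the difference) and between PD-1- Tregs and CD4 T cells (adjusted p = 0.0489). The effect on Mrc1, the mannose receptor, differed between the same populations (adjusted p = 0.00728 for PD-1+ minus PD-1- Tregs and 0.00719 for PD-1- Tregs minus CD4 T cells). All of these differences rest on 2 anti-PD-L1 and 2 isotype PD-1- Treg libraries, which both differences share. None of them passed with the sample number of the titles as a block within treatment. Ccl2 and Mrc1 were the only genes of the list called in either difference. Of all genes tested, 0.841% were called higher and 0.618% lower for PD-1+ minus PD-1- Tregs. For PD-1- Tregs minus CD4 T cells these shares were 0.447% and 0.529%. Both Ccl2 differences also lost their call when any anti-PD-L1 library of PD-1+ Tregs or CD4 T cells was left out.

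Y-linked reads were found outside the measurements above in 3 libraries from mice labelled female. They came to 285 CPM in PD-1+ Tregs (anti-PD-L1 replicate 3), 249 CPM in PD-1- Tregs (anti-PD-L1 replicate 2) and 207 CPM in CD4 T cells (anti-PD-L1 replicate 3), against at most 0.0849 CPM in the other 11 libraries.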

How the results depend on the processing

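Percentages in brackets here are the share of all genes tested that were called in either direction. Of the 36 genes 26 (4.28%) were called higher in PD-1+ than PD-1- Tregs, against 13 (0.35%) when only those groups were fitted and 16 (1.29%) with the replicate number as a block. The replicate number joins libraries across treatments and differs from the sample number of the titles in anti-PD-L1 PD-1- Tregs. With the sample number of the titles as a block within treatment 13 (0.625%) were called. In the fit of all libraries, 15 (1.77%) were called with only the anti-PD-L1 groups compared and 12 (0.871%) with only the isotype groups. For PD-1- Tregs against CD4 T cells the 21 calls (3.6%) became 13 (0.387%) with that block within treatment. They became 12 (0.841%) with only the anti-PD-L1 groups compared and 12 (0.96%) with only the isotype groups. Between PD-1+ Tregs and CD4 T cells DESeq2 called 1 (5.52%). The 2 calls for anti-PD-L1 in PD-1- Tregs (2.66%) became 9 in DESeq2 (20.5%), 1 in limma-voom (5.08%), 1 with log2(RPKM + 1) (4%) and 0 when only those groups were fitted (0.0521%). The 2 calls for PD-1+ minus PD-1- Tregs (1.46%) became 6 in DESeq2 (16.1%), 1 in limma-voom (3.04%) and 0 with log2(RPKM + 1) (0.938%). They became 1 with the replicate block (0.238%) and 0 with the block within treatment (0.0744%). The 2 for PD-1- Tregs minus CD4 T cells (0.975%) became 6 (13.4%), 1 (2.29%), 0 (0.194%), 1 (0.149%) and 0 (0.067%) in the same settings, and 1 with log2(RPKM + 0.1) (0.863%). With the block within treatment the adjusted p in these differences was 0.0877 and 0.097 for Mrc1 and 0.103 and 0.104 for Ccl2. The cause was not tested. The summed ratio of 4.66 became 5.93 without the highest gene and 7.81 without Ctsb and Ctss, and that of 0.268 became 0.167 without both.

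Leaving out each library gave 18 (without PD-1+ isotype replicate 2) to 28 (without PD-1- isotype replicate 1) calls for PD-1+ over PD-1- Tregs, 16 to 26 for PD-1- Tregs over CD4 T cells, 2 to 7 for anti-PD-L1 in PD-1- Tregs, 1 to 6 and 0 to 6 for its differences from PD-1+ Tregs and CD4 T cells (all 3 highest counts without PD-1- isotype replicate 1), and 0 for the other comparisons. Summed ratios ranged over 4.27 to 4.89, 0.249 to 0.315 and 1.15 to 1.47 for PD-1+ over PD-1- Tregs, PD-1- Tregs over CD4 T cells and PD-1+ Tregs over CD4 T cells. Where this left 1 library in a group, that library was assumed to vary like the other groups. Over the genes called, 1115 repeats stayed past the threshold, 245 did not and 0 reversed. DESeq2 called 2455 genes higher and 508 lower in PD-1+ than PD-1- Tregs, against 511 and 64 in edgeR. Same-numbered libraries deviated together with r of 0.00203 to 0.0354 in 13 pairs, none over 0.1, and the main fit did not treat them as paired. These r values cannot decide whether such libraries share an origin, because in groups of 2 libraries the deviations mirror each other. The 3 libraries with Y-linked reads bear the same sample number. With the block within treatment fewer genes were called, as given above. Arms of 2 libraries and a common biological coefficient of variation of 1.217 limit what could be called.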

Other observations

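Outside the list, the genes whose log2 CPM across the 14 libraries followed most closely the log2 of the summed CPM of the 36 genes, among 8800 genes with a mean of at least 10 CPM, included C5ar1 (Pearson r = 0.956), Pirb (0.954) and Cd300c2 (0.952), which encode myeloid receptors. They also included Sgo1 (0.966) and Ncapg (0.952), which act in chromosome segregation and condensation, and Terf2 (0.961), which protects telomeres. Lactb2, Krt80, Gpr160 and Adap2 completed the 10 most alike genes, with r of 0.950 to 0.959. Sgo1 had 20.5 to 48.5 CPM in PD-1+ Tregs, 0 in all PD-1- Tregs and 6.77 to 22.9 CPM in CD4 T cells, and Ncapg had 36.8 to 102 CPM in PD-1+ Tregs, 0 in all PD-1- Tregs and 11.0 to 37.8 CPM in CD4 T cells. All 10 genes had at most 0.271 CPM in any PD-1- Treg library, where the summed level was also lowest. Their correlations by rank were lower, with Spearman rho of 0.715 (C5ar1) to 0.856 (Sgo1). Libraries share depth and population, so these correlations are a description.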
